A study of Homo sapiens with 49 samples.

Results

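Transcripts of the dual-specificity MAP kinase phosphatases were followed in 6 lymphoma cell lines (diffuse large B-cell type, a fast-growing cancer of mature B lymphocytes) exposed to doxorubicin, a DNA-binding drug that poisons topoisomerase II. The genes were DUSP1, DUSP2, DUSP4 and DUSP5 (inducible nuclear enzymes), DUSP6 and DUSP7 (cytoplasmic, directed at ERK), and DUSP8, DUSP10 and DUSP16 (directed mainly at JNK and p38). They were chosen by symbol, and a probe set was used only where the array's annotation gave it 1 gene. The rule found all 9 genes with 21 probe sets, out of 19775 genes with 41097 such probe sets. For each gene the brightest probe set over the 49 arrays stood for it, and the others are described further on.

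Messenger RNA was measured on 49 Affymetrix arrays, 1 per line, dose and time, in the lines U2932, SU-DHL-5, RIVA, OCI-Ly7, NU-DHL-1 and FARAGE. Of the untreated cells, 6 lines each were sampled at 0, 2 and 12 h, and 3 lines (RIVA, U2932, OCI-Ly7) at 48 h. The low dose, 0.00061 µg/mL, had the same lines as the untreated cells at 2, 12 and 48 h. The high dose, 2.5 µg/mL, had 6 lines at 2 h, 5 at 12 h (all but SU-DHL-5) and 2 at 48 h (U2932 and RIVA). All lines grew in the same serum-supplemented medium, and no genotype or drug sensitivity of a line is given in the labels. The line was therefore the replicate, and each treated array was set against the untreated array of its own line and time. No label speaks of a second culture of a line. The p-values therefore rest on the spread of the paired differences over lines, together with variance that limma borrows from other genes. In that spread, noise of culture and array cannot be told apart from differences between lines.

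MAP kinases are switched on by phosphorylation of a threonine and a neighbouring tyrosine, and these phosphatases switch them off by removing both phosphates. Many of their genes are transcribed in response to the kinases they inactivate, which makes them negative feedback regulators as well as markers of recent MAP kinase activity. Their transcripts are mostly short-lived, so that mRNA levels can move quickly in both directions. In B cells they act downstream of the antigen receptor, of cytokines and of cellular stress, DNA damage included.

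The values were log2 intensities after quantile normalization, so that levels were set between arrays and never between genes, and every difference is relative to most other genes of the same array. Spiked poly-A control transcripts, added to total RNA before labelling in the manufacturer's protocol, were higher in treated than in untreated arrays at 2.5 µg/mL, by 0.30 at 2 h, 1.79 at 12 h and 3.24 at 48 h (log2, mean over 6, 5 and 2 lines). In untreated cells alone they differed by -0.27 between 2 and 0 h, a shift of like size to the 2 h value without the drug. Hybridization controls, added after labelling, differed by 0.02, 0.67 and 1.5 at the 3 times. Scaling arrays to the poly-A controls put the difference of the median gene at -0.28 (2 h), -1.59 (12 h) and -3.07 (48 h), in place of 0.02, 0.20 and 0.17, and centring arrays on their medians put it at 0.01, 0.09 and 0.07. Calls on the poly-A scale (of all genes 52 higher and 7548 lower at 2 h, 32 and 19106 at 12 h, 27 and 19237 at 48 h) repeat a shift measured 1 time per array. The part of these controls in the changes of the phosphatases was not tested. What lies behind their shift, such as fewer cells or less mRNA per cell, cannot be told from these bulk samples. A gene's distance from the median gene is the same under each of these scalings, and is given where a direction depends on them. All 5 measured B-cell markers lay above the median gene (5.83) in all 6 untreated lines, and all 5 T-cell and 4 myeloid markers lay below it. At 2.5 µg/mL, 4 of the 5 B-cell markers fell at 12 h and 3 at 48 h, where 14.7% and 8.28% of all genes were called lower (18.2% and 5.66% higher). Of the T-cell markers, CD3D rose by 0.75 and 1.4, and the other 4 were not called. Of the myeloid markers, CD14 rose by 1.69 and 3.36, and its highest value on any array was 8.77, above the median gene. CSF1R rose by 0.49 at 12 h and was not called at 48 h, and the remaining myeloid markers were not called. All T-cell and myeloid markers lay below 0 at 12 h on the poly-A scale. Their part in the changes described here was not tested.

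Untreated lines differed widely in which of the phosphatases they expressed. DUSP6, the ERK phosphatase that ERK itself induces, spanned 6.01 log2 units, from 4.41 ± 0.19 in FARAGE to 10.42 ± 0.25 in NU-DHL-1 (SD of the 3 arrays at 0, 2 and 12 h). SU-DHL-5 followed at 6.69 ± 0.30, and OCI-Ly7 (5.03), RIVA (4.9), U2932 (4.64) and FARAGE lay close together, the first 2 of these with overlapping arrays. DUSP6 was thus high in NU-DHL-1, intermediate in SU-DHL-5 and low in the other 4 lines.

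DUSP4, a nuclear phosphatase of ERK, JNK and p38, was high in FARAGE (8.92 ± 0.03) and intermediate in NU-DHL-1 (6.77 ± 0.30). In U2932 (4.46), OCI-Ly7 (4.37), SU-DHL-5 (4.24) and RIVA (4.15) each line overlapped the next in the order. DUSP10, a phosphatase of JNK and p38, was highest in U2932 (8.22 ± 0.43) and lowest in NU-DHL-1 (4.61 ± 0.33), with FARAGE (7.96), RIVA (7.43) and SU-DHL-5 (7.26) overlapping their neighbours and OCI-Ly7 (5.51) apart from both sides. DUSP16, which also acts on JNK and p38, was higher in NU-DHL-1 (8.40 ± 0.35) and FARAGE (8.12 ± 0.18), which overlapped, than in U2932 (6.80), SU-DHL-5 (6.24), RIVA (5.93) and OCI-Ly7 (5.91).

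DUSP2, the lymphocyte-enriched nuclear phosphatase also called PAC-1, was expressed in all lines and ran from 8.27 ± 0.10 in OCI-Ly7 to 10.75 ± 0.12 in FARAGE. Between them lay U2932 (9.70) and RIVA (9.64), which overlapped, and SU-DHL-5 (8.99) and NU-DHL-1 (8.78), which also overlapped. DUSP1, the stress-inducible phosphatase of p38 and JNK, stood at 8.59 ± 0.26 in NU-DHL-1, while the other 5 lines lay between 6.39 and 7.08 and each overlapped its neighbour. DUSP7 ran from 6.39 ± 0.12 in RIVA to 9.05 ± 0.06 in NU-DHL-1, with no overlap between any neighbours in the order. DUSP5, a nuclear ERK-specific phosphatase, ran from 5.24 ± 0.44 in OCI-Ly7 to 7.21 ± 0.27 in SU-DHL-5. DUSP8 differed by 0.24 over the 6 lines, less than its largest SD within a line (0.34), and the order of the lines could not be told from it. No test was made of these levels, because each line was sampled 1 time per time point.

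**Figure D1:**
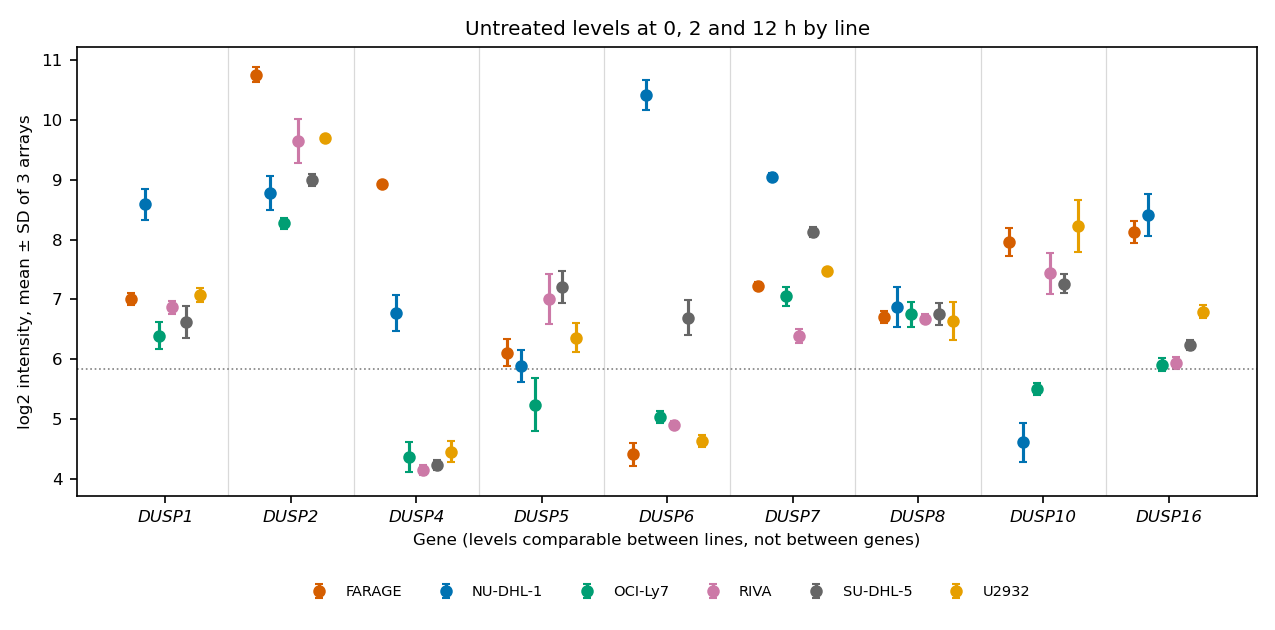
Untreated log2 intensity of the 9 genes by cell line, with points at the mean and bars at ± SD of the 3 arrays at 0, 2 and 12 h, and a dotted line at the median gene (5.83). DUSP6 and DUSP4 show the widest spread between lines (6.01 and 4.77 log2 units) and DUSP8 the narrowest (0.24).

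Over 2 h at 2.5 µg/mL, DUSP1, DUSP5 and DUSP10 rose and none of the other 6 phosphatases passed the test. The 3 calls among 9 genes compare with 10.4% of all genes called (4.03% higher, 6.38% lower; limma, adjusted p below 0.05). No member's groups were apart, as were those of 0.121% of all genes on the higher and 0.0506% on the lower side. The median difference over the 9 genes was 0.07 and that over all genes 0.02. With arrays scaled to poly-A controls DUSP1 kept its call at 0.72, and DUSP5 (0.32, adjusted p = 0.0549) and DUSP10 (0.29, adjusted p = 0.0735) did not, while DUSP2 (-0.55), DUSP4 (-0.55) and DUSP16 (-0.53) were called lower.

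DUSP1 lies on chromosome 5 (chr5:172768096-172771195, GRCh38.p14). Its untreated 2 h arrays ran from 6.62 in OCI-Ly7 over a median of 6.95 to 8.89 in NU-DHL-1, and its treated arrays from 7.37 in OCI-Ly7 over 8.17 to 9.31 in NU-DHL-1. The ranges overlapped, because NU-DHL-1 began higher than the treated OCI-Ly7, but within each of the 6 lines the treated array was the higher. The mean difference was 1.02 ± 0.15 (limma SE, n = 6 lines), or 2.03-fold, with an adjusted p of 0.000974. The increase was largest in RIVA (1.95) and smallest in NU-DHL-1 (0.43), the line with the highest untreated level. The call held when each line was left out in turn (0.84 to 1.14, adjusted p 0.000659 to 0.00684), and was lost without the line as a block and when all arrays were fitted jointly (adjusted p = 0.390).

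The bases before the DUSP1 start are shown because the gene rose at 2 h in every line, and because they hold the cyclic AMP response element (CRE) through which CREB and ATF factors are known to act on such genes. The 250 bases upstream of the RefSeq start (chr5:172771196-172771445, minus strand, GRCh38.p14) are given in the direction of the gene, with capitals at each CRE (TGACGTCA) and each copy of its shorter core TGACG on either strand.
DUSP1: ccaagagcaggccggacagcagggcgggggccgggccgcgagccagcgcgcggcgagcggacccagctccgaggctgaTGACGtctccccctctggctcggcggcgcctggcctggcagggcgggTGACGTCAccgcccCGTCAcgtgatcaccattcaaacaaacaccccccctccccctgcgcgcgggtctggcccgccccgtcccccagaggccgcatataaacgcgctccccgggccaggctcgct
Counted from the start, the full element lay at -125 to -118, and further cores lay at -172 to -168 and -111 to -107, the latter overlapping an E-box (CACGTG). DUSP8 (chr11:1554051-1572848), described with the 12 h values, has in the RefSeq table a start at 1572271, inside the gene's annotated span and not at its outer end. The window before this inner start held 2 full elements, at -118 to -111 and -74 to -67, shown here with the bases around them (chr11:1572371-1572400 and chr11:1572327-1572356, minus strand).
DUSP8 distal: ccgggctccgcTGACGTCAcctgcccccga
DUSP8 proximal: ttggctgcaggTGACGTCAggggctttttt
Upstream windows of the same length were at hand for 7 of the 9 genes, 8 windows in all since DUSP10 has 2 starts, and none for DUSP4 and DUSP5. Only the DUSP1 and DUSP8 windows held the CRE or its core on either strand. Of 35116 promoters in the RefSeq table, 1.65% held the CRE and 21.2% the core. The AP-1 letters TGANTCA were in none of the 8 windows (6.57% of all promoters), CACGTG was in those of DUSP1 and DUSP2 (6.34%), and a loose NF-kB consensus was in all 8 (54.4%). The window of DUSP6 (chr12:89352502-89352751, minus strand), which is shown as well, held no CRE, core, AP-1 or E-box letters.
DUSP6: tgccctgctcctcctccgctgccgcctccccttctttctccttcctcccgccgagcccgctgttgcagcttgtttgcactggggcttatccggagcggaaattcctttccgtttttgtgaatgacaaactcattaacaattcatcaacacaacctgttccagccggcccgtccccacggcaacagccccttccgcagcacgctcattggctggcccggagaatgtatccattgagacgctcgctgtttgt
These matches describe letters in a window and not bound sites. DUSP8 differed by 0.17 at 2 h (limma, adjusted p = 0.217), and the part of these letters in any change was not tested.

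DUSP5 (chr10:110497907-110511533) ran from 5.71 over 6.22 to 7.49 in untreated and from 5.41 over 7.42 to 8.11 in treated 2 h arrays. The groups overlapped, and 5 of 6 lines were higher, OCI-Ly7 the most (1.51), while NU-DHL-1 was lower (-0.42). The mean difference was 0.62 ± 0.18 (n = 6, adjusted p = 0.0448, limma). Of the 6 fits that left out a line, only that without NU-DHL-1 kept the call (0.83, adjusted p = 0.00663). Without FARAGE, OCI-Ly7, RIVA, SU-DHL-5 or U2932 the adjusted p was 0.0524 to 0.156.

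DUSP10 (chr1:221701424-221742089) ran from 4.60 over 7.63 to 8.61 in untreated and from 5.83 over 7.76 to 9.01 in treated 2 h arrays. Again the groups overlapped, and 5 of 6 lines were higher: NU-DHL-1, with the lowest untreated level, rose the most (1.23), OCI-Ly7 and RIVA followed (1.00 and 0.91), and FARAGE was lower (-0.25). The mean difference was 0.59 ± 0.15 (n = 6, adjusted p = 0.0252, limma), and it kept its call without FARAGE (0.76) or SU-DHL-5 (0.66) but not without NU-DHL-1, OCI-Ly7, RIVA or U2932 (adjusted p 0.0571 to 0.0871).

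Of the 6 phosphatases not called at 2 h, DUSP2 differed most between lines. Its untreated arrays ran from 8.38 over 9.38 to 10.69 and its treated arrays from 8.18 over 9.14 to 11.34. FARAGE differed by -2.51 and RIVA by 1.27, with 3 lines on each side, and the mean was -0.24 ± 0.35 (adjusted p = 0.744). DUSP4 (chr8:29333064-29350684) differed by -1.46 in FARAGE, the line with the highest level, and by between -0.26 and 0.32 in the other 5. Its untreated means in RIVA, SU-DHL-5, OCI-Ly7 and U2932 were 4.15 to 4.46. These lie near its lowest value on any array (3.94), so a fall there could hardly have been seen. DUSP16 (chr12:12473282-12562863) was lower in 5 of 6 lines (mean -0.23 ± 0.09, adjusted p = 0.123), and DUSP6, DUSP7 and DUSP8 had means of 0.07, 0.04 and 0.17.

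**Figure D2:**
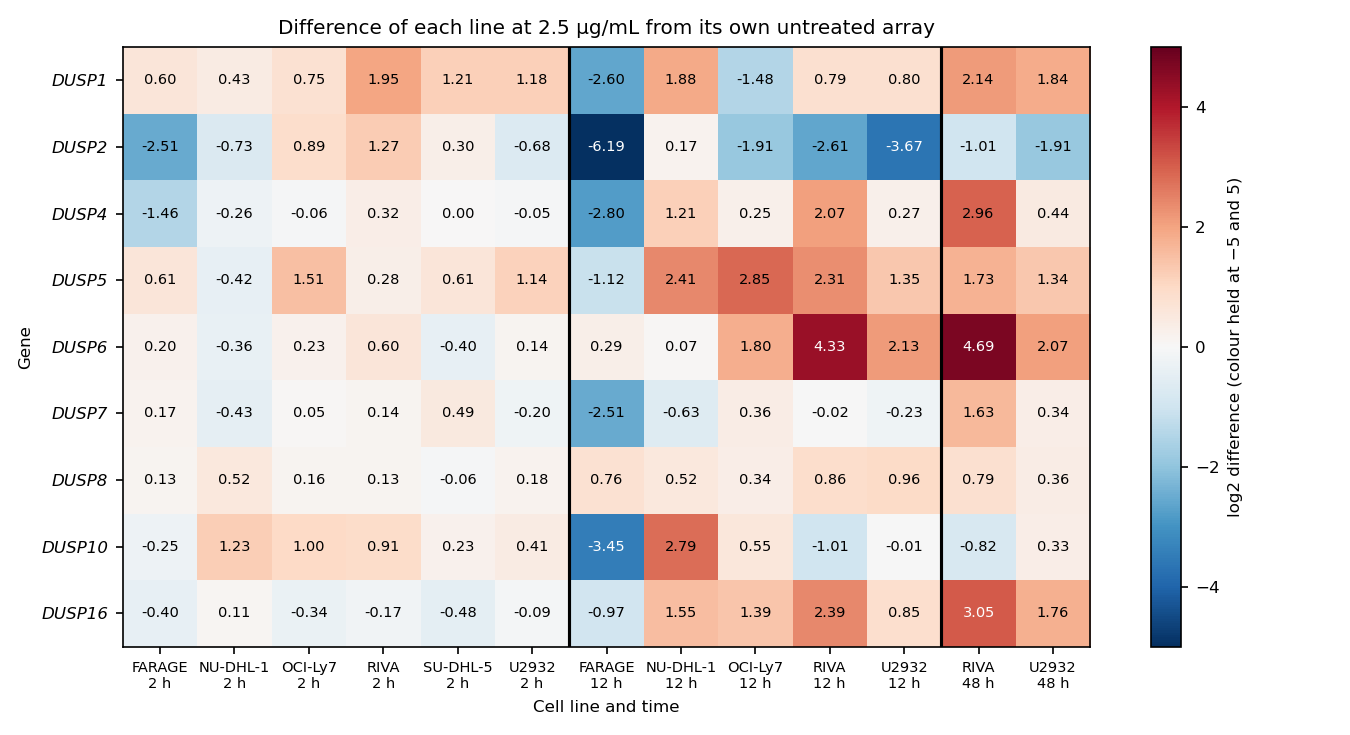
Log2 difference of each line at 2.5 µg/mL from its own untreated array, for the 9 genes (rows) at 2, 12 and 48 h (columns, 1 array per dose), with blue for lower and red for higher. Each gene is shown by its brightest probe set. DUSP1 is higher in all 6 lines at 2 h. At 12 h FARAGE is lower for 7 of the 9 genes, and NU-DHL-1 is higher for 8. Scaling to poly-A controls lowers every value of an array alike.

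At 12 h and 2.5 µg/mL, DUSP2 fell and DUSP6 and DUSP8 rose relative to most genes, in the 5 lines measured. On the poly-A scale all 9 means lay below 0, with DUSP6 at -0.06 and DUSP8 at -1.10. The 3 calls among 9 genes are a share near the background, since 32.8% of all genes were called (18.2% higher, 14.7% lower). Each call was lost when OCI-Ly7, RIVA or U2932 was left out (0 called), while 4 were called without FARAGE (DUSP2, DUSP5, DUSP6 and DUSP16). The median over the 9 genes was 0.20, the same as over all genes.

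DUSP2 (chr2:96143169-96145440) had the largest mean difference of the 9 at this time. Untreated values at 12 h were 10.89 in FARAGE, 8.84 in NU-DHL-1, 8.20 in OCI-Ly7, 9.39 in RIVA and 9.66 in U2932. Treated values were 4.70, 9.02, 6.28, 6.78 and 5.99 in the same order. 4 of the 5 lines, all but NU-DHL-1, stood below every untreated array, and the groups overlapped through NU-DHL-1 alone. The mean difference was -2.84 ± 0.75 (n = 5, adjusted p = 0.0255, limma), from -6.19 in FARAGE to 0.17 in NU-DHL-1. DUSP2 lay 3.01 below the median gene on average, and below it in 4 of 5 lines. Its adjusted p was 0.0408 without FARAGE and 0.00866 without NU-DHL-1, but 0.0575 to 0.0801 without OCI-Ly7, RIVA or U2932.

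DUSP6 (chr12:89347235-89352501) moved the other way. Untreated values were 4.49 in FARAGE, 10.65 in NU-DHL-1, 5.14 in OCI-Ly7, 4.9 in RIVA and 4.75 in U2932, and treated values were 4.78, 10.72, 6.95, 9.23 and 6.88. The groups overlapped, because NU-DHL-1 was high in both and FARAGE low in both, but all 5 lines were higher after treatment. The mean difference was 1.73 ± 0.56 (n = 5, adjusted p = 0.0471), or 3.31-fold, and 1.56 above the median gene, with all 5 lines above it. RIVA contributed 4.33, U2932 2.13 and OCI-Ly7 1.80, against 0.29 in FARAGE and 0.07 in NU-DHL-1. Without RIVA the mean was 1.07 (adjusted p = 0.105), and without OCI-Ly7 or U2932 the adjusted p was 0.112 and 0.122. With the line block removed it was 0.372, and with arrays centred on their medians 0.0684.

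DUSP8, a phosphatase of JNK and p38, was the only member of the family whose groups did not overlap at 12 h, where 8.79% of all genes stood entirely higher and 5.38% entirely lower. Untreated values were 6.69 in FARAGE, 6.80 in NU-DHL-1, 6.98 in OCI-Ly7, 6.62 in RIVA and 6.29 in U2932, and treated values were 7.45, 7.32, 7.32, 7.48 and 7.25. The difference was small and even, 0.69 ± 0.21 (n = 5, adjusted p = 0.0369), from 0.34 in OCI-Ly7 to 0.96 in U2932. It was 0.52 above the median gene, and with arrays scaled to hybridization controls it was 0.02 (adjusted p = 0.970). With arrays centred on their medians DUSP8 lost its call as well. Of the fits without a line, only that without NU-DHL-1 kept the call.

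The other 6 phosphatases were not called at 12 h, and 5 of them had lines that moved far in opposite directions. DUSP5 was 1.35 to 2.85 higher in 4 lines and differed by -1.12 in FARAGE (mean 1.56 ± 0.53, adjusted p = 0.0516; 2.23, adjusted p = 0.00448 without FARAGE). DUSP16 was 0.85 to 2.39 higher in the same 4 lines and differed by -0.97 in FARAGE (mean 1.04 ± 0.44, adjusted p = 0.0922; 1.55, adjusted p = 0.0132 without FARAGE). Of the 5 fits that left out a line, only that without FARAGE called either gene. In the other fits the adjusted p (limma) reached 0.153 for DUSP5 and 0.267 for DUSP16. FARAGE is the line that pointed the other way in these same data, so the fit without it gives no separate support for a rise.

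DUSP1 at 12 h stood at 4.52 in FARAGE and 4.69 in OCI-Ly7 after treatment, below all untreated arrays, and at 10.35 in NU-DHL-1, above all of them. RIVA and U2932 reached 7.67 and 7.78, and the mean of -0.12 ± 0.60 (adjusted p = 0.881) describes none of the 5 lines. DUSP10 ranged from -3.45 in FARAGE to 2.79 in NU-DHL-1 around a mean of -0.23 ± 0.73. DUSP4 differed by -2.80 in FARAGE and 2.07 in RIVA (mean 0.20 ± 0.59). DUSP7 (chr3:52048919-52056571) differed by -2.51 in FARAGE and within -0.63 to 0.36 in the others (mean -0.61 ± 0.40).

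**Figure D3:**
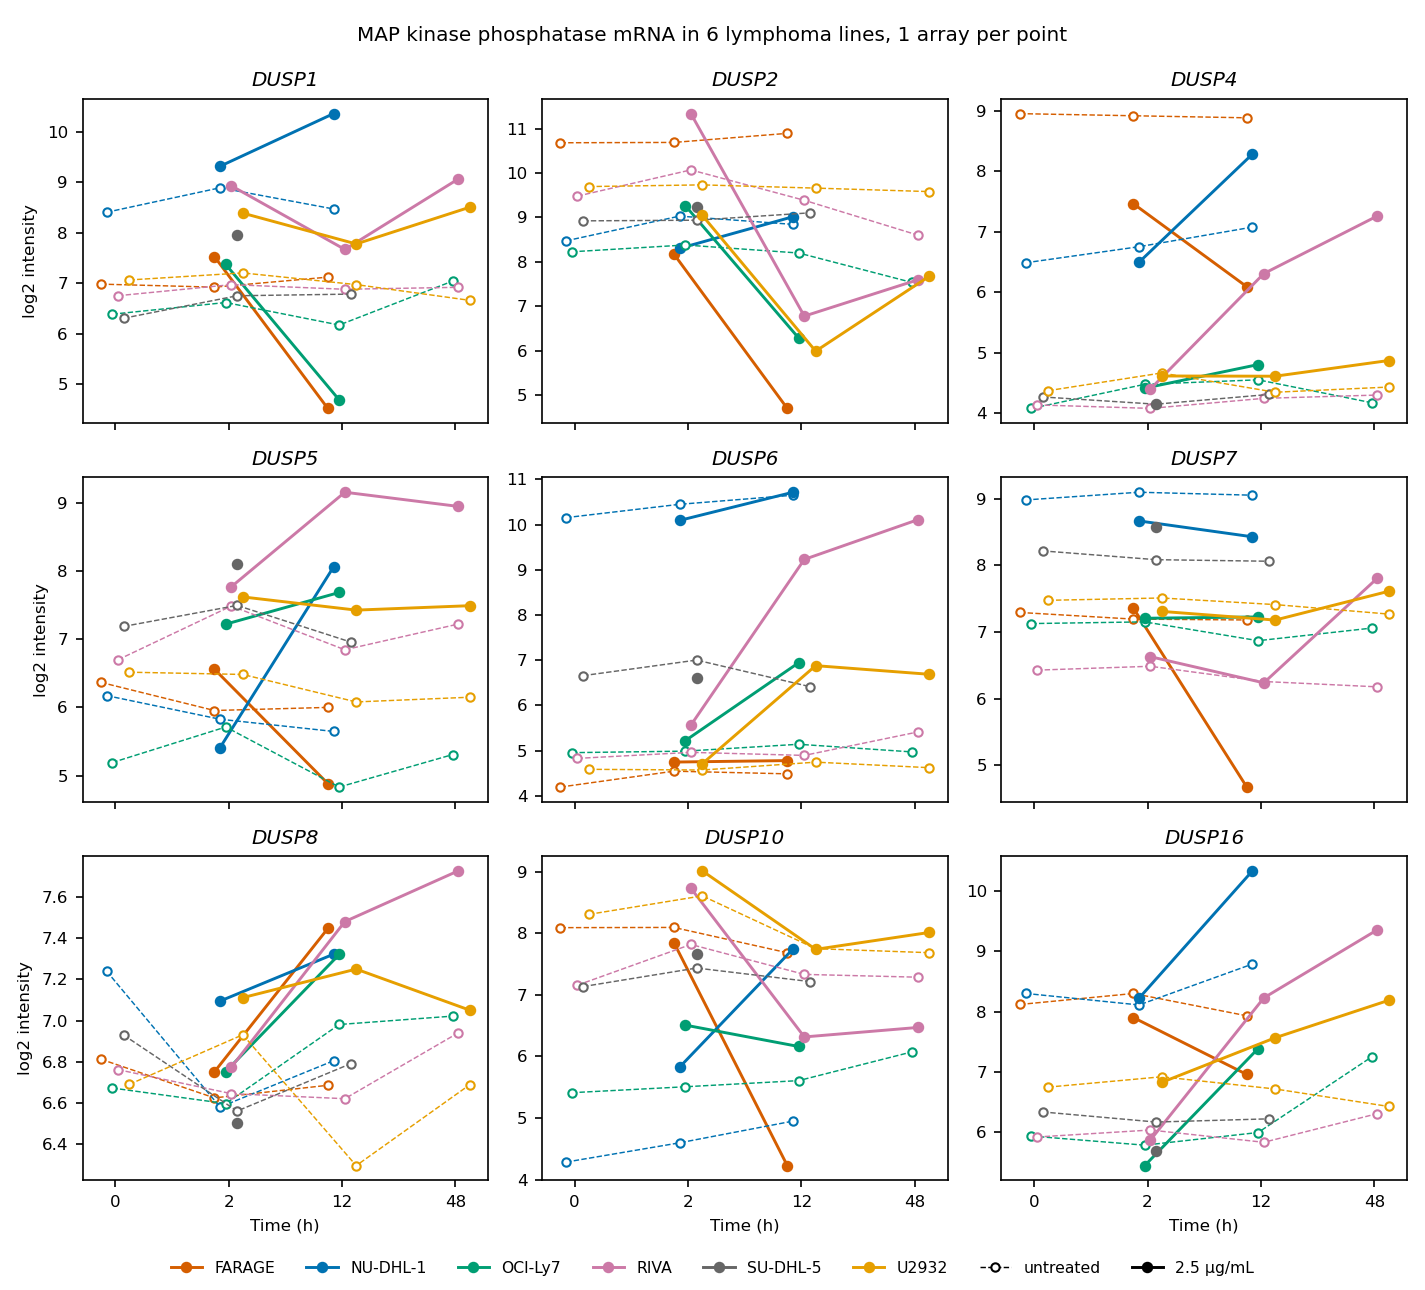
Log2 intensity of each gene over time (0, 2, 12 and 48 h as evenly spaced categories, not to scale), with open points and dashed lines for untreated cells and filled points and solid lines for 2.5 µg/mL, 1 array per point and 1 colour per line; axes differ between genes. DUSP2 falls from 2 to 12 h in FARAGE, OCI-Ly7, RIVA and U2932 and not in NU-DHL-1, and DUSP6 rises most in RIVA (9.23 at 12 h, 10.11 at 48 h).

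Set side by side, the lines differed in direction at 12 h. In FARAGE 2 of the 9 phosphatases were higher and 7 lower than in its untreated array and 6 were at least 2-fold lower (DUSP1, DUSP2, DUSP4, DUSP5, DUSP7 and DUSP10), where 17% of all genes were that much lower and 9.99% higher. In NU-DHL-1 8 of 9 were higher and 5 were at least 2-fold higher (DUSP1, DUSP4, DUSP5, DUSP10 and DUSP16), where 6.35% of all genes were that much higher and 10.4% lower. In OCI-Ly7 7 were higher and 2 lower, and in RIVA and U2932 6 were higher and 3 lower. OCI-Ly7 had 3 phosphatases at least 2-fold higher and 2 lower (6.44% and 14.8% of all genes), RIVA had 4 and 2 (8.05% and 14.6%), and U2932 had 2 and 1 (6.7% and 12.2%). The poly-A controls stood 2.13 higher in treated FARAGE, 2.54 in NU-DHL-1 and 1.30 to 1.54 in the other 3 lines, and their part in these values was not tested. Each of these lines gave 1 array per condition, so the difference between lines has no replicate and was not tested. These counts rest on the brightest probe sets. At 12 h the other 2 probe sets of DUSP1 were higher in 5 of 5 lines (0.81 and 0.52), FARAGE included. The dimmer ones of DUSP7 and DUSP10 had means of 0.10 and 0.25, higher in 3 and 4 of 5 lines. All 3 of DUSP4 were higher in 4 of 5 lines, and DUSP2 and DUSP5 had 1 probe set each.

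At 48 h, where RIVA and U2932 alone were sampled at 2.5 µg/mL, DUSP6, DUSP16, DUSP1 and DUSP4 rose relative to most genes; on the poly-A scale DUSP6 stood at 0.14 and the other 3 at -0.84, -1.25 and -1.54. The 4 calls among 9 genes compare with 13.9% of all genes called (5.66% higher, 8.28% lower). The median over the 9 was 1.53 and that over all genes 0.17, and 7 of the 9 lay above the median gene. With 2 lines the fit had 1 residual degree of freedom, so its standard errors rest mainly on variance borrowed from other genes, and no member was called without the variance trend or without the line block. On the hybridization scale none of the 4 kept its call, and DUSP2 was called lower (-2.95).

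DUSP6 was 5.41 in untreated and 10.11 in treated RIVA, and 4.62 and 6.69 in U2932. The mean difference was 3.38 ± 0.62 (n = 2, adjusted p = 0.00635, limma), 10.4-fold, with RIVA (4.69) far above U2932 (2.07). DUSP16 was 6.31 and 9.36 in RIVA and 6.43 and 8.19 in U2932, a mean of 2.40 ± 0.56 (adjusted p = 0.0164). DUSP1 was 6.92 and 9.06 in RIVA and 6.66 and 8.5 in U2932, a mean of 1.99 ± 0.54 (adjusted p = 0.0287), and here the lines were close.

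DUSP4 was 4.30 and 7.26 in RIVA and 4.43 and 4.87 in U2932. Its mean of 1.70 ± 0.52 (adjusted p = 0.0466) came mostly from RIVA, since the lines differed by 2.96 and 0.44. DUSP5 (7.22 and 8.95 in RIVA, 6.15 and 7.49 in U2932) had a mean of 1.53 ± 0.53 and missed the threshold (adjusted p = 0.0724), as did DUSP2, lower in RIVA (8.6 and 7.60) and U2932 (9.58 and 7.67), at -1.46 ± 0.55 (adjusted p = 0.0974). DUSP7, DUSP8 and DUSP10 had means of 0.99, 0.58 and -0.24. For 8 of the 9 genes, all but DUSP10, treated and untreated values did not overlap, but 34.7% of all genes stood entirely higher and 20.4% entirely lower with so few arrays.

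The change of the 2.5 µg/mL difference with time was tested on each line's own difference. From 2 to 12 h, in 5 lines, the DUSP2 difference fell by 2.49 ± 0.61 (adjusted p = 0.0224) and the DUSP6 difference rose by 1.56 ± 0.46 (adjusted p = 0.0414), against 21.8% of all genes called (9.3% higher, 12.5% lower). DUSP2 moved down in 4 of 5 lines and up in NU-DHL-1 (0.90), and DUSP6 moved up in all 5 (0.09 to 3.73). Neither was called without OCI-Ly7, RIVA or U2932, and DUSP2 was not called without FARAGE either (-2.19, adjusted p = 0.0589). On the poly-A scale the change from 2 to 12 h was 0.10 for DUSP6, so little of its rise was left, and -3.95 for DUSP2. DUSP16 missed the threshold (1.22 ± 0.40, adjusted p = 0.0557), and so did DUSP1, lower in 4 of 5 lines (-1.10 ± 0.57, adjusted p = 0.173). From 12 to 48 h, in RIVA and U2932, none of the 9 was called by limma (0.126% of all genes were, 0.101% higher and 0.0253% lower). Its unadjusted p was below 0.05 for 3 of the 9 and for 2097 of all genes. The DUSP2 difference changed by 1.60 in RIVA and 1.76 in U2932 (adjusted p = 0.171), that of DUSP1 by 1.36 and 1.04 (0.327), and that of DUSP6 by 0.36 and -0.07 (0.955). On the poly-A scale the change from 12 to 48 h was -0.08 for DUSP2, -0.57 for DUSP1 and -1.62 for DUSP6.

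At 0.00061 µg/mL none of the 9 phosphatases was called at 2, 12 or 48 h, and limma called 0% of all genes at each time. An unadjusted p below 0.05 was found for 1, 0 and 1 of the 9 and for 809, 1481 and 1465 of all genes. Mean differences of the 9 lay between -0.20 (DUSP6) and 0.11 (DUSP8) at 2 h, between -0.14 (DUSP8) and 0.13 (DUSP5) at 12 h, and between -0.31 (DUSP8) and 0.15 (DUSP1) at 48 h. The largest value of a line was -0.66, for DUSP6 in FARAGE at 2 h (4.55 untreated, 3.89 treated), and no line had a phosphatase 2-fold higher or lower. DUSP8 at 48 h was lower in all 3 lines (-0.31 ± 0.10, adjusted p = 0.489). Standard errors of 0.03 to 0.14 bound what these arrays could have shown. On the poly-A scale, where the controls differed by -0.14 at 12 h, 4 of the 9 and 6046 of all genes were called at that time.

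**Figure D4:**
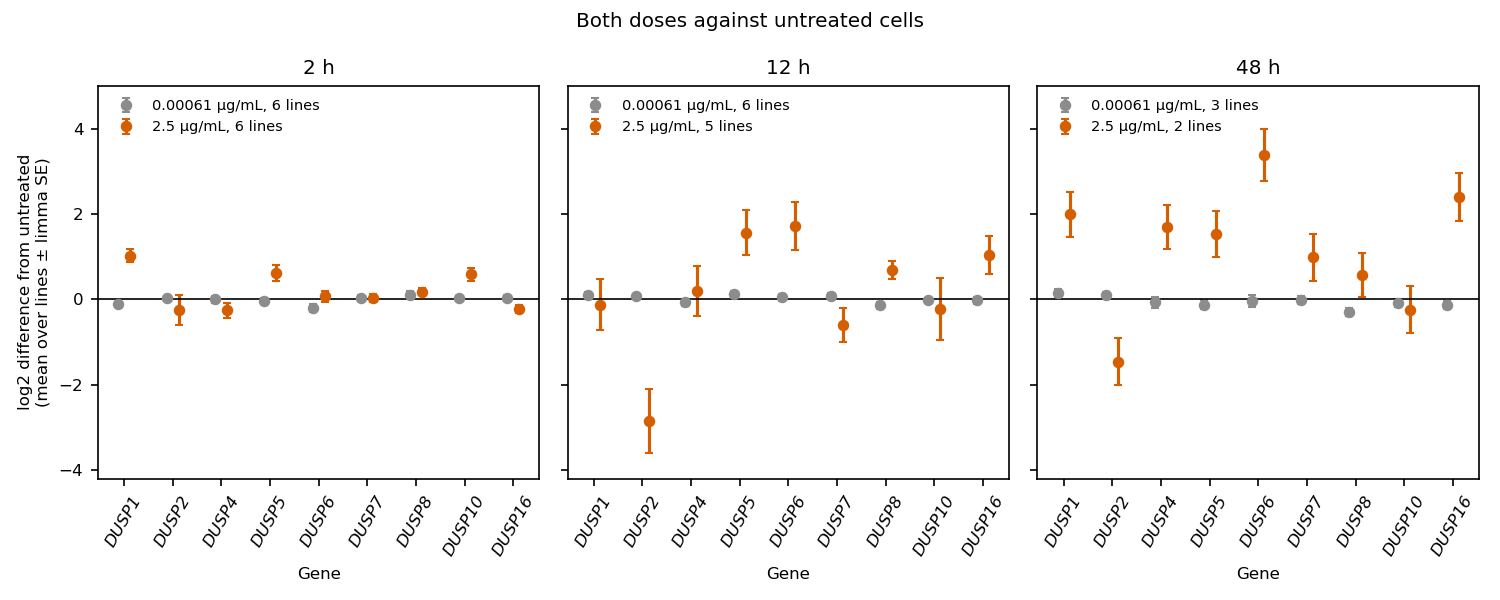
Mean log2 difference from untreated cells ± limma SE for the 9 genes at 2, 12 and 48 h, in grey for 0.00061 µg/mL and in orange for 2.5 µg/mL, with the number of lines in each legend. All low-dose means lie between -0.31 and 0.15, while high-dose means reach 3.38 (DUSP6, 48 h) and -2.84 (DUSP2, 12 h).

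Set directly against the low dose, 2.5 µg/mL gave the same genes at 2 h: DUSP1 (1.13 ± 0.15, adjusted p = 0.000582), DUSP5 (0.66, 0.0430) and DUSP10 (0.57, 0.0482), where 10.2% of all genes were called (4.22% higher, 5.99% lower). At 12 h these were DUSP2 (-2.92 ± 0.73, lower in 5 of 5 lines, adjusted p = 0.0226), DUSP6 (1.74, 0.0478) and DUSP8 (0.79, 0.0198), against 29.1% of all genes (14.8% higher, 14.3% lower). In NU-DHL-1 the DUSP2 difference was slight, since the high dose stood 0.17 and the low dose 0.19 above the untreated array. At 48 h, in RIVA and U2932, DUSP6 (3.60), DUSP4 (1.96), DUSP16 (2.43) and DUSP1 (1.88) were called, against 18.6% of all genes (7.36% higher, 11.2% lower). These comparisons share the high-dose arrays with those above and are no independent evidence for them. The directions at 12 and 48 h turned on the poly-A scale for DUSP6 at 12 h (-0.21), DUSP8 (-1.17), and DUSP1 (-1.25), DUSP4 (-1.17) and DUSP16 (-0.70) at 48 h.

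Time in culture was examined in the untreated cells. None of the 9 was called at 2, 12 or 48 h against 0 h, where limma called 0.622% (0.172% higher, 0.45% lower), 0.0152% and 0% of all genes. Unadjusted p was below 0.05 for 4, 1 and 1 of the 9, and for 2835, 2049 and 2552 of all 19775 genes. At 2 h DUSP10 was higher in 6 of 6 lines (0.28 ± 0.08, adjusted p = 0.113) and so was DUSP2 (0.23 ± 0.07, adjusted p = 0.161), while DUSP1 was higher in 5 of 6 (0.24 ± 0.07, adjusted p = 0.135). On the poly-A scale 4 of the 9 and 1137 of all genes were called at 2 h, and 3 of the 9 and 6221 of all genes at 48 h. DUSP16 in OCI-Ly7 went from 5.94 at 0 h to 7.25 at 48 h, the largest untreated difference of the family (1.31).

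The probe sets of a gene did not always give the same answer. For DUSP6 the 3 probe sets had means of 1.73, 2.51 and 2.64 at 12 h and 3.38, 5.08 and 4.56 at 48 h, so the brightest one gave the smallest difference. The 4 probe sets of DUSP16 gave 1.04, 0.69, 1.4 and 0.55 at 12 h and 2.40, 0.99, 2.62 and 1.07 at 48 h, and the 3 of DUSP4 gave 1.70, 2.67 and 3.10 at 48 h. These genes kept their direction in all their probe sets at 12 and 48 h.

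For DUSP1 the brightest probe set (7.29 on average) rose by 1.02 at 2 h, in 6 of 6 lines. The second (6.12) differed by -0.00, with 2 of 6 lines higher, and the dimmest (4.52) by 0.27, in 6 of 6 lines. At 12 h the brightest gave -0.12 and the others 0.81 and 0.52, each in 5 of 5 lines. The low DUSP1 values of FARAGE and OCI-Ly7 at 12 h were thus seen with the brightest probe set alone. At 48 h the brightest gave 1.99 and the others 0.81 and 0.67, each in 2 of 2 lines. With the 3 averaged, the 2 h difference was 0.43 (adjusted p = 0.00976).

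DUSP10 gave 0.59 and 0.40 at 2 h, both in 5 of 6 lines, and -0.23 and 0.25 at 12 h. DUSP7 gave -0.61 with the brighter and 0.10 with the dimmer probe set at 12 h, and DUSP8 gave 0.69 and 0.54. At 48 h the brighter and dimmer probe sets gave 0.99 and 0.04 for DUSP7 and 0.58 and 0.06 for DUSP8. For DUSP10 they gave -0.24 and 0.46 at that time, with opposite signs. The brighter DUSP8 probe set and the dimmest of DUSP1 carry the suffix _x_at, with which the manufacturer marks probes that may also match other transcripts. DUSP2 and DUSP5 had 1 probe set each.

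**Figure D5:**
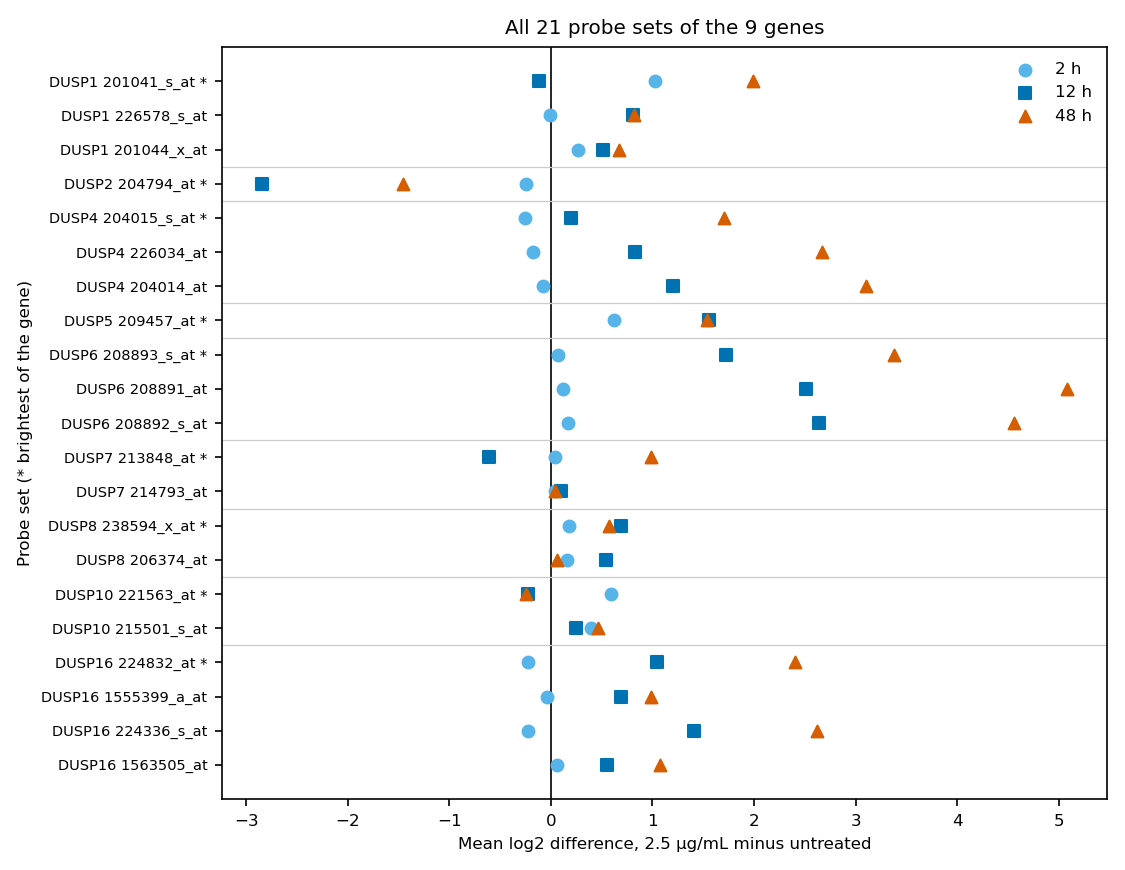
Mean log2 difference of 2.5 µg/mL from untreated cells for each of the 21 probe sets, at 2 h (circles, 6 lines), 12 h (squares, 5 lines) and 48 h (triangles, 2 lines), ordered within a gene by mean level, with an asterisk at the brightest. The probe sets of DUSP4, DUSP6 and DUSP16 order the times alike, while those of DUSP1, DUSP7 and DUSP10 differ in sign at 12 h; scaling to poly-A controls moves all 12 and 48 h points down.

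Over the 49 arrays, with each line's own untreated mean removed, the genes whose values ran most like those of a phosphatase were found by Pearson's r. These arrays share lines and treatments, and many genes were called at the high dose, so r is a description. For DUSP1 they were ZNF689 (0.84), PPP1R15A (0.83), a stress-induced regulatory subunit of protein phosphatase 1, and ZNF597 (0.81). For DUSP2 they were FBXL14, PHF23 and CGAS (0.93, 0.92 and 0.92), for DUSP4 SLCO5A1, ADRB1 and ELF4 (0.91 each), and for DUSP5 OSER1, GZF1 and TRAFD1 (0.79, 0.78 and 0.77). For DUSP6 they were INSM2, CYP7A1 and C5AR1 (each 0.95), and for DUSP7 LRRC42, ADPRS and WBP1L (0.89, 0.87 and 0.87). DUSP8 ran most like MIR1-1HG, LMF2 and FIZ1 (0.87, 0.86 and 0.85), DUSP10 like WTAP, STX11 and DNAJB9 (0.87, 0.87 and 0.86), and DUSP16 like LINC00623, SMAD7 and OTUD1 (0.93, 0.91 and 0.90). Within the family, DUSP4 and DUSP16 were most alike (0.81), then DUSP6 and DUSP16 (0.79), and DUSP2 ran against DUSP8 (-0.63) and DUSP6 (-0.52).

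The counts of the pathway lists that follow stand against the shares of all genes called at 2.5 µg/mL: 10.4% at 2 h (4.03% higher, 6.38% lower), 32.8% at 12 h (18.2% and 14.7%) and 13.9% at 48 h (5.66% and 8.28%). Nothing particular to a list is read from its count.

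Other dual-specificity and MAP kinase-directed phosphatases, 20 of 23 listed genes with a value, had none called at 2 h, 8 at 12 h (3 higher, 5 lower) and 3 at 48 h, all lower (on the poly-A scale all 20 lay below 0 at each time). DUSP11, which removes phosphates from RNA, fell by 3.13 at 12 h and DUSP12 fell by 1.19, each in 5 of 5 lines. PTPN7, a haematopoietic tyrosine phosphatase of ERK, fell by 1.37 in 5 of 5 lines. Of the 3 higher, DUSP13B rose by 0.67 in 5 of 5 lines.

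Of 19 measured ERK cascade genes, 3 were higher and 1 lower at 2 h, 1 higher at 12 h (KSR1, a scaffold, 0.66) and 1 each way at 48 h, with a median of -0.05 at 12 h; all 19 lay below 0 at each time on the poly-A scale. With arrays centred on their medians 1 was higher and 1 lower at 2 h, 1 lower at 12 h, where KSR1 lost its call, and none was called at 48 h. Of 34 JNK and p38 cascade genes, 5 fell at 2 h, 8 were called at 12 h (2 up, 6 down), and 5 fell at 48 h; all 34 lay below 0 at each time on the poly-A scale. MAP3K5, the stress-activated kinase ASK1, fell by 0.51 at 2 h, 2.75 at 12 h and 2.42 at 48 h, in every line measured. MAP2K6, which activates p38, fell by 1.63 at 12 h and 2.52 at 48 h. Whether the cascades and the phosphatases differ was not tested.

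Among 24 measured ERK-responsive targets and feedback inhibitors, 4 rose and 4 fell at 2 h, 3 and 4 at 12 h, and 8 and 2 at 48 h (median 1.26 at 48 h, and -1.98 on the poly-A scale). At 48 h the counts higher and lower were 4 and 2 with centred arrays, 0 and 4 on the hybridization scale, and 0 and 19 on the poly-A scale. IER3 rose by 2.23 at 2 h and MAFF by 1.30, each in 6 of 6 lines, and MAFF rose by 3.71 at 48 h. SPRY1, a feedback inhibitor of ERK signalling, rose by 0.94 at 12 h (below 0 on the poly-A scale), while SPRED1, another, fell by 2.22. Of 16 transcription factors that are MAP kinase substrates, 3 rose and 2 fell at 2 h, while 2 rose and 4 fell at both later times. JUN, the main target of JNK, rose by 2.00, 2.79 and 4.85 at 2, 12 and 48 h, and ATF3 by 1.14, 3.86 and 5.05, and these were the 2 called higher on the poly-A scale at 12 and at 48 h. CREB1, the factor named for the CRE, fell by 0.33 at 2 h in 6 of 6 lines and by 2.42 at 48 h. Of 10 factors of AU-rich element mRNA decay, which destabilise many short-lived transcripts, 1 was lower at 2 h, 5 at 12 h and 3 at 48 h, with none higher, and on the poly-A scale all 10 lay below 0 at 12 and 48 h. HNRNPD fell by 1.61 at 12 h and CNOT7, a deadenylase, fell by 1.72, each in 5 of 5 lines.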

How the data were processed

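The deposited log2 intensities were computed by the authors with RMA, which corrects background, equalizes the arrays' distributions and gives each probe set a single value; the submitters' processing notes name affy and R 3.0.2. Of 54675 probe sets, 41097 had 1 gene in the platform annotation, and the brightest over 49 arrays stood for each of 19775 genes (10523 had several). An array gives no count, so the number of arrays limits the precision. Each comparison was fitted over all genes with limma 3.58.1 (R 4.3.3, data.table version 1.17.8), a variance trend and the line as a block, and p-values were adjusted by Benjamini-Hochberg over 19775 genes, with calls below 0.05. A change of the effect with time was fitted on each line's own difference. The fit was tested on simulated data. The block rests on the shared line of each pair. The 9 genes, the pathway lists and the rules were chosen with earlier results of these data known. For each member the 3 genes of highest r, and from each list up to 4 called genes of smallest adjusted p, could be named. Sequences are from RefSeq (GRCh38.p14). A comparison of the proteins was not analysed here. Alternatives were a fit without trend, without block or of all arrays, 3 scalings, mean probe sets, a level filter, each line left out and 0 h controls.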

Additional observations from a re-analysis of the deposited data

Results flagged for a closer look

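Of 81 sets of 5 or 6 lines, each set holding 1 gene's differences in 1 comparison, 5 had a line far from the others. Chance gives about 1 in 20, and the count found is near that share. Some sets share arrays and are not independent. At 2 h and 2.5 µg/mL, DUSP4 differed by -1.46 in FARAGE, with the nearest line at -0.26. In RIVA, SU-DHL-5, OCI-Ly7 and U2932 its untreated level (4.15 to 4.46) left little room for a fall. Against the low dose at 12 h, DUSP5 differed by -1.38 in FARAGE, with the nearest line at 1.44. In untreated cells at 12 h against 0 h, DUSP16 differed by 0.49 in NU-DHL-1, with the nearest line at 0.06. From 2 to 12 h the 2.5 µg/mL difference of DUSP2 changed by 0.90 in NU-DHL-1, with the nearest line at -2.80, and that of DUSP7 by -2.68 in FARAGE, with the nearest line at -0.19.

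The effect of 2.5 µg/mL differed between 2 and 12 h by limma's test of that change for DUSP2 (-2.49, adjusted p = 0.0224, lower in 4 of 5 lines) and DUSP6 (1.56, adjusted p = 0.0414, higher in 5 of 5 lines). On the poly-A scale the DUSP6 change was 0.10 and the DUSP2 change -3.95.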

How the results depend on the processing

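Counts are of the 9 phosphatases called. At 2.5 µg/mL against untreated cells, 3 at 2 h became 1 without the variance trend, 0 without the replicate block, 0 with all arrays fitted jointly and 1 to 2 with a line left out. The 3 at 12 h became 1 with centred arrays, 6 on the poly-A scale (all lower), 1 without the block, 6 in the joint model and 0 to 4 without a line. The 4 at 48 h became 0 without the trend, 1 on the hybridization scale (DUSP2, lower), 0 without the block and 7 jointly, and on the poly-A scale 0 were higher and 6 lower. Against the low dose, 3 at 2 h became 1 without the trend, 1 with mean probe sets, 0 without the block, 0 jointly and 1 to 2 without a line. The 3 at 12 h became 7 on the poly-A scale (19381 of all genes called), 6 jointly and 0 to 5 without a line. The 4 at 48 h became 2 centred (2243 of all genes), 2 on the hybridization scale (12103), 0 without the block and 7 jointly. The 2 called for the change from 2 to 12 h became 1 without the trend, 1 centred and 0 to 4 without a line. They became 6 on the poly-A scale (18254 of all genes) and 5 on the hybridization scale (6629). On the poly-A scale the low dose at 12 h went from 0 to 4, where 6046 of all genes were called. Untreated cells went from 0 to 4 at 2 h (1137 of all genes) and 3 at 48 h (6221). The change from 12 to 48 h went from 0 to 5 (17844 of all genes).

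Of all genes at 2.5 µg/mL against untreated cells, 2057 were called at 2 h, 6494 at 12 h and 2757 at 48 h. Without the trend these were 1004, 6135 and 9, and on the poly-A scale 7600, 19138 and 19264. At 12 h, 3591 were higher and 2903 lower; with centred arrays 1793 and 3109 were, on the hybridization scale 195 and 7012. At 48 h, 1119 were higher and 1638 lower, on the hybridization scale 87 and 3997, and with mean probe sets 945 and 1120.

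Values called on either setting whose sign turned were found on the poly-A scale alone. Against untreated cells these were DUSP4 (-1.59), DUSP6 (-0.059) and DUSP8 (-1.10) at 12 h, and DUSP1 (-1.25), DUSP4 (-1.54), DUSP5 (-1.71), DUSP7 (-2.25), DUSP8 (-2.66) and DUSP16 (-0.84) at 48 h. Against the low dose they were DUSP4 (-1.69), DUSP6 (-0.21), DUSP8 (-1.17) and DUSP16 (-0.81) at 12 h, and DUSP1 (-1.25), DUSP4 (-1.17), DUSP5 (-1.54), DUSP7 (-2.21), DUSP8 (-2.26) and DUSP16 (-0.70) at 48 h. For changes with time they were DUSP4 (-0.96) and DUSP8 (-0.999) from 2 to 12 h, and DUSP4 (-1.23), DUSP6 (-1.62) and DUSP10 (-1.49) from 12 to 48 h. This scaling subtracts the same amount from all genes of an array, so any rise smaller than the control difference turns, 3 of the 4 called at 48 h included; the cause of the other changes was not tested. Values called on neither setting also turned, such as DUSP5 (-0.22) and DUSP16 (-0.74) on the poly-A scale at 12 h, and at 12 h DUSP1 (0.50) and DUSP10 (0.58) without FARAGE and DUSP4 (-0.27) without RIVA. Few arrays at 48 h and a single array per line limit all of these results.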
